A study of Mus musculus with 6 samples.

Results

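The 55 genes described here are interferon effector genes: members of the Oas, Ifit, Mx, guanylate-binding protein (Gbp), immunity-related GTPase (IRG) and Schlafen (Slfn) families, sensors of foreign nucleic acid, and other genes known to be induced by interferon. They were chosen by symbol from a fixed list that left out the Ifi200 cluster of chromosome 1, and all 55 were found among 50600 genes and passed the filter on low counts, which 16938 genes passed. The study sequenced polyadenylated RNA of primary cortical thymic epithelial cells (cTECs), the stromal cells of the thymic cortex on which immature T cells undergo positive selection. There were 3 libraries from mice of strain B6.B6CB-Psmb11tm1Smta with the genotype Psmb11-/- (KO, replicates A, B and C) and 3 from Psmb11+/+ mice of the same strain designation (WT, replicates A, B and C). Both groups were 8- to 10- week-old and carried no other labelled allele or treatment. Psmb11 encodes β5t, a catalytic proteasome subunit characteristic of cTECs, and the labels name no Cre driver or cell-type-specific allele. The labels do not say whether the replicates were separate mice or pools, so the p-values measure only the spread between these samples, which may be technical.

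Type I and type III interferons signal through their receptors to Janus kinases, which activate Stat proteins; these join Irf9 and bind the interferon-stimulated response element (ISRE) of effector genes. Type II interferon acts through Stat dimers that bind the gamma-activated site (GAS). The effectors then act in distinct ways: Oas enzymes make an oligoadenylate messenger when they meet double-stranded RNA, Ifit proteins bind foreign RNA, Mx, Gbp and IRG proteins are GTPases that attack viruses or pathogen vacuoles, and Isg15 is a ubiquitin-like modifier. In the thymus, epithelial cells are known to show some interferon-driven expression without infection.

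The 6 libraries held 34265035 to 39224292 gene counts. Psmb11 had 36 to 67 counts in KO libraries and 8293 to 10027 in WT libraries. Apart from the deleted Psmb11, the defining cTEC markers were present in both groups. Of these markers 10 of 10 were called lower in KO (7 with the replicate block, 8 without WT replicate A, 9 with limma and without KO replicate B or WT replicate C). Psmb11 is among the 10, and its own call follows from the deletion. Of all genes tested 11.1% were called lower and 12.5% higher. The summed level of the cTEC markers, Psmb11 included, was 5348 to 6300 CPM (read counts on a common library size, scaled by TMM) in KO against 8855 to 9397 CPM in WT. Markers of myeloid and dendritic cells summed to 63.8 to 73.8 CPM in KO against 33.9 to 37.5 CPM in WT. Of these markers 7 of 8 tested were called higher (5 with DESeq2 or RSEM counts and without KO replicate A or WT replicate A, 4 with limma and 3 with a filter at 5 CPM). Markers below that filter were not tested under it. Of 11 listed, 3 (Clec9a, Xcr1 and Fcgr1) had 5 counts or fewer in every library. Thymocyte markers summed to 33.7 to 66.9 CPM in KO against 36.3 to 45.5 CPM in WT. In RNA from a cell population, fewer cells of a type and less RNA per cell cannot be told apart.

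The promoters of 4 members are shown because they carry the same motif upstream of genes that did and did not pass the test. Each is the stretch of 150 bases before the RefSeq start of the gene (GRCm38.p6), written 5′ to 3′ along the gene's own strand. Capitals mark matches to the ISRE core, searched as GAAANNGAAA on both strands, or to the GAS, searched as TTCNNNGAA, which is its own reverse complement. The windows are Oas3 (chr5:120777660-120777809, minus strand), Rsad2 (chr12:26456453-26456602, minus strand), Gbp7 (chr3:142530186-142530335, plus strand) and Isg15 (chr4:156200819-156200968, minus strand).
Oas3: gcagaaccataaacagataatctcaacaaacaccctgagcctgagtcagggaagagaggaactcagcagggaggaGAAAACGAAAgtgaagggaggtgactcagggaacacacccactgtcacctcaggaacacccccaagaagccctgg
Rsad2: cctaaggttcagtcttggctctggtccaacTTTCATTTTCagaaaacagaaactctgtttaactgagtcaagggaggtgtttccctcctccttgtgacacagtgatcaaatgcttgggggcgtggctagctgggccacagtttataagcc
Gbp7: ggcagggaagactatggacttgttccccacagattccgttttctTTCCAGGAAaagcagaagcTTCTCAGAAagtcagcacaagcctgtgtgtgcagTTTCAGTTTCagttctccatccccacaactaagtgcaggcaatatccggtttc
Isg15: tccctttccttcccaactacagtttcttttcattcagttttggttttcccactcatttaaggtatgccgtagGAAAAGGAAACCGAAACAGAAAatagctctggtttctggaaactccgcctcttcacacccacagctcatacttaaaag
The Oas3 window holds an ISRE core match whose first base lies 75 bases before the start, and that of Rsad2 lies 120 bases before it. Gbp7 has an ISRE core match 53 bases before the start and GAS matches at 106 and 87 bases. Isg15 has 3 overlapping ISRE core matches, at 78, 72 and 66 bases. Oas3, Rsad2 and Gbp7 were called higher in KO and Isg15 was not called.

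RefSeq promoter windows of 300 bases, which run slightly past the start, were found for 39 of the 55 members. At least 1 ISRE core match stood in the windows of 24 members (61.5%), against 1079 of all 27025 genes with a window (4.0%). A GAS match stood in 11 members (28.2%) and in 2582 of all genes (9.6%). In Bst2 and Ifitm3 a GAS match overlapped an ISRE core match. Among members with a window, the ISRE core was found in 16 of 27 that were called higher and in 8 of 12 that were not called. GAS matches stood in 5 of the 27 and in 6 of the 12. A match describes letters only and is not evidence of binding.

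Most of the members were higher in KO, by small amounts. A gene was called at a p below 0.05 in the edgeR quasi-likelihood test, adjusted by Benjamini-Hochberg across every gene tested. By this rule 40 of 55 members (72.7%) were called in either direction, against 23.6% of all genes tested. Of these, 38 (69.1%) were called higher, against 12.5% of all genes, and 2 were called lower, Ifi27 and Ifi27l2a (3.6%, against 11.1%). The median log2 fold change was 0.18 over the members and -0.00 over all genes tested, whose median size of change was 0.13.

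The 3 KO and the 3 WT libraries did not overlap in CPM for 43 members (78.2%), against 39.3% of all genes tested. All KO libraries lay above all WT libraries for 41 members (74.5%, against 19.2% of all genes) and below them for 2 (3.6%, against 20%). Overlap of the groups was seen for 12 members, among them Ifi44, which was called higher although its level in KO replicate B (148 CPM) was under that of WT replicate C (149 CPM). The sum over all members was 9740 to 9897 CPM in KO against 8984 to 9249 CPM in WT, or 0.972% to 1.0% and 0.893% to 0.921% of the gene counts.

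The sizes of the rises were uneven. Among the 38 members called higher, the median rise was 1.18-fold and the smallest, that of Ddx58, 1.07-fold. A rise of at least 1.2-fold was measured for 17 and one of at least 1.5-fold for 3, which were Oas2, Ifitm1 and Oas3. The 15 members not called had log2 fold changes from -0.06 to 0.10, and 12 of them lay above 0.

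**Figure D1:**
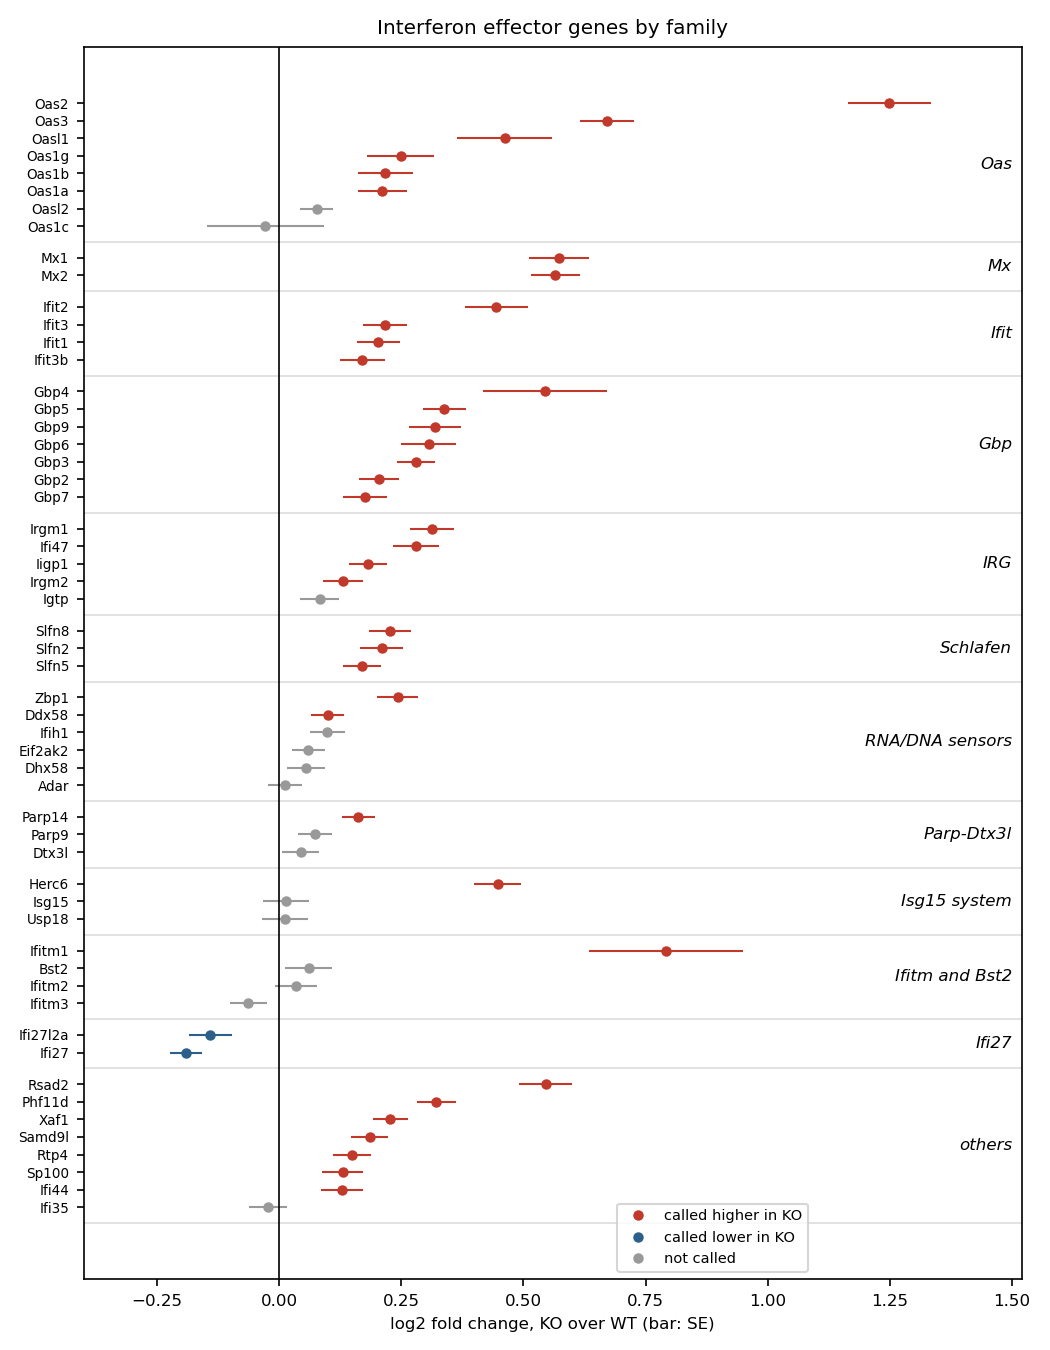
Log2 fold change (KO over WT, x axis) of the 55 members with its SE as a bar, in 12 groups by family, coloured by the call at an adjusted p below 0.05. Oas2 stands at 1.25, most members lie between 0 and 0.6, and Ifi27 and Ifi27l2a lie below 0.

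The Oas family held both the largest rise and members without a call. Of its 8 members 6 were called higher, with a median log2 fold change of 0.23 over the 8 and a range of -0.03 to 1.25. Oas2 and Oas3 carry repeated synthetase units, and Oasl1 is an Oas-like protein without synthetase activity. Oas2 (ENSMUSG00000032690.16) had 46.3, 49.0 and 50.3 CPM in the KO libraries A to C, in that order, against 18.3, 19.2 and 23.7 CPM in the WT libraries A to C; the same order is kept throughout. Every KO library was far above every WT library. The level was 2.38-fold higher in KO, with a log2 fold change of 1.25 ± 0.08 (SE) and an edgeR adjusted p of 3.92e-06.

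Oas3 had 51.2, 48.9 and 50.6 CPM in KO against 29.6, 30.8 and 34.1 CPM in WT. The groups were well apart, with a 1.59-fold higher level in KO (log2 0.67 ± 0.05 SE, edgeR adjusted p = 6.35e-07). Oasl1 was low in all libraries, with 13.4, 13.1 and 12.6 CPM in KO against 8.25, 10.2 and 9.90 CPM in WT. These values did not overlap either, and the rise was 1.38-fold (edgeR adjusted p = 0.00249).

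The Oas1 genes showed smaller differences. Oas1a, Oas1b and Oas1g were higher in KO by 1.16-, 1.16- and 1.19-fold (edgeR adjusted p = 0.00658, 0.0106 and 0.0149). Without WT replicate B, Oas1a and Oas1g were not called (adjusted p = 0.0515 and 0.0837), and Oas1g was also lost without KO replicate C (0.0765) or WT replicate C (0.0511). Oas1b is annotated as a polymorphic pseudogene, a gene intact in some mouse strains only. Oas1c had 5.44, 5.56 and 6.38 CPM in KO against 5.63, 6.02 and 6.06 CPM in WT, which overlapped (adjusted p = 0.895).

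Oasl2, the most abundant Oas gene, had 779, 776 and 788 CPM in KO against 724, 739 and 758 CPM in WT. Its groups did not overlap, but the 1.05-fold difference was not called (edgeR adjusted p = 0.114). Of the 8 genes, 6 lie in one stretch of chromosome 5, from 120730333 to 120907521 (GRCm38, GENCODE M21). Of these 6 genes 5 were called, with Oas1c the exception. Genes of the stretch that are not on the list were not examined. Oasl1 and Oasl2 lie apart from these 6 on the same chromosome, from 114896936 to 114937915.

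Both Mx genes, of a family of dynamin-like GTPases known to block viral replication, were higher in KO. Whether these mice make active Mx protein was not tested. Mx1 had 50.3, 49.6 and 42.6 CPM in KO against 31.1, 31.7 and 33.1 CPM in WT. Mx2 had 47.9, 48.2 and 51.3 CPM in KO against 32.1, 34.9 and 32.8 CPM in WT. Neither gene's groups overlapped, and the lowest KO value of Mx1 was that of replicate C. The rises were 1.49-fold for Mx1 and 1.48-fold for Mx2 (edgeR adjusted p = 1.15e-05 and 1.53e-06). The median log2 fold change of the pair, 0.57, was above that of every other family. Mx2 is annotated as a polymorphic pseudogene, and both lie on chromosome 16 between 97447035 and 97560900.

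All 4 listed Ifit genes were called higher, with a median log2 fold change of 0.21. Ifit2 stood apart from the rest, with 78.5, 82.5 and 71.7 CPM in KO against 52.7, 61.9 and 56.5 CPM in WT. The groups did not overlap, and the level was 1.36-fold higher in KO (log2 0.44 ± 0.06 SE, edgeR adjusted p = 5.91e-04). Ifit3, the most abundant of the family, had 453, 439 and 402 CPM in KO against 357, 372 and 385 CPM in WT, a 1.16-fold rise (adjusted p = 0.00249). Ifit1 and Ifit3b rose 1.15- and 1.13-fold (adjusted p = 0.00307 and 0.0148). Ifit3b was not called without KO replicate A (adjusted p = 0.0549), WT replicate A (0.0813) or WT replicate B (0.0635). The 4 genes lie in one stretch of chromosome 19, from 34550694 to 34650009.

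**Figure D2:**
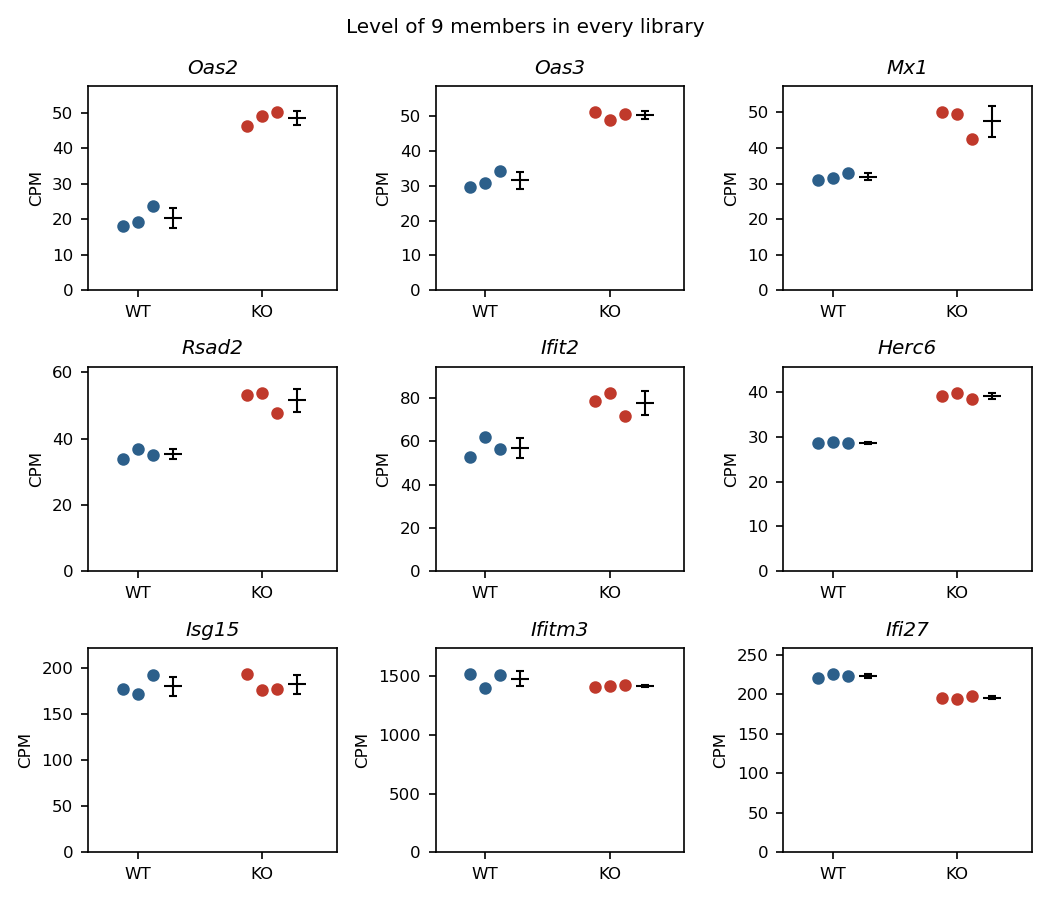
CPM of 9 members in each library (points, replicates A to C from left to right) with the mean and SD of each genotype (black, n = 3 each), on axes that start at 0. The KO points of Oas2, Oas3, Mx1, Rsad2, Ifit2 and Herc6 lie above all WT points, those of Isg15 and Ifitm3 overlap them, and those of Ifi27 lie below.

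All 7 listed Gbp genes, large GTPases that coat intracellular pathogens and their vacuoles, were called higher and none had overlapping groups. Of all genes tested, 19.2% had all KO libraries above all WT libraries. Their median log2 fold change was 0.31, with a range of 0.18 to 0.54. Gbp4 showed the top of this range, with 31.4, 33.8 and 27.1 CPM in KO against 17.6, 24.4 and 21.3 CPM in WT. It was also the most variable of the family, with an SE of 0.13 (edgeR adjusted p = 0.0197), and was not called without KO replicate A (adjusted p = 0.0892) or WT replicate C (0.0722). Gbp5 had 72.1, 73.5 and 69.3 CPM in KO against 54.3, 56.1 and 59.5 CPM in WT, 1.26-fold higher (adjusted p = 5.36e-05).

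Gbp3 had 185, 176 and 170 CPM in KO against 146, 141 and 149 CPM in WT, 1.21-fold higher (edgeR adjusted p = 8.84e-05). Gbp2, the most abundant, rose 1.15-fold (adjusted p = 0.00192), Gbp9 1.25-fold (7.16e-04) and Gbp6 1.24-fold (9.28e-04). Gbp7, whose promoter is shown above, rose 1.13-fold (adjusted p = 0.0101) and was not called without WT replicate B (0.0567). With limma 4 of the 7 genes were called, and Gbp2, Gbp7 and Gbp9 were not (adjusted p = 0.0749, 0.150 and 0.0560). The 7 genes lie in separate stretches, with Gbp2, Gbp3, Gbp5 and Gbp7 on chromosome 3 (142493978 to 142638008). Gbp4, Gbp6 and Gbp9 lie on chromosome 5 (105077630 to 105293698). The listed genes of either stretch were all called higher.

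Of the 5 listed IRG genes, smaller GTPases that disrupt pathogen vacuoles, 4 were called higher, with a median log2 fold change of 0.18. Irgm1, a regulator of the other IRG proteins, had 557, 571 and 560 CPM in KO against 449, 487 and 423 CPM in WT. This was 1.24-fold higher without overlap (edgeR adjusted p = 1.49e-04). Ifi47 had 135, 127 and 133 CPM in KO against 103, 117 and 105 CPM in WT, 1.21-fold higher (adjusted p = 5.98e-04), and Iigp1 was 1.13-fold higher (0.0032). Irgm2 was 1.09-fold higher (adjusted p = 0.029), a call lost without KO replicate A (0.0534) or C (0.0898) or WT replicate A (0.137) or B (0.110), and with DESeq2 (0.0513) or limma (0.0573). Its neighbour Igtp overlapped between groups, with 97.4 to 105 CPM in KO against 93.5 to 98.0 CPM in WT (adjusted p = 0.150).

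The 3 listed Schlafen genes, whose products restrict growth or act on RNA, were all called higher by similar amounts. The rises were 1.12-fold for Slfn5, 1.16-fold for Slfn2 and 1.17-fold for Slfn8 (edgeR adjusted p = 0.00471, 0.00251 and 0.00108). Slfn8 had 65.2, 65.3 and 66.8 CPM in KO against 53.5, 57.3 and 57.7 CPM in WT. None of the 3 overlapped between groups. They lie together on chromosome 11, from 82951349 to 83070678.

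Among the members that sense or act on foreign nucleic acid, the differences were small. Of 6 such members 2 were called higher, and the median log2 fold change was 0.08. Zbp1, a sensor of Z-form nucleic acid, had 90.1, 88.8 and 85.7 CPM in KO against 72.7, 72.1 and 78.9 CPM in WT, 1.18-fold higher without overlap (edgeR adjusted p = 6.86e-04). Ddx58, which encodes the RNA sensor RIG-I, had 187, 179 and 182 CPM in KO against 171, 168 and 173 CPM in WT. These did not overlap, but the 1.07-fold rise was close to the threshold (adjusted p = 0.0423). It was not called without KO replicate A or C or any single WT replicate (adjusted p from 0.0701 to 0.150), nor with DESeq2, no low count filter, RSEM or unstranded counts or a non-robust prior, and it kept its call in 5 of 15 settings.

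Ifih1, which encodes the RNA sensor MDA5, had a log2 fold change as large as that of Ddx58, 0.10, and just missed the threshold (edgeR adjusted p = 0.0609). Eif2ak2, the RNA-dependent kinase PKR, differed 1.04-fold without overlap (adjusted p = 0.229), and Dhx58 1.04-fold with overlap (0.340). Adar, the enzyme that edits adenosine in RNA, was the most abundant of the 6, with 328, 315 and 336 CPM in KO against 321, 321 and 328 CPM in WT. Its groups overlapped (log2 0.01 ± 0.03 SE, adjusted p = 0.852).

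In the Isg15 conjugation system, 1 of 3 members was called higher. Herc6, the ligase that attaches Isg15 to proteins in the mouse, had 39.0, 39.8 and 38.4 CPM in KO against 28.5, 28.9 and 28.6 CPM in WT. The libraries of a genotype were nearly equal, and the difference was 1.36-fold (log2 0.45 ± 0.05 SE, edgeR adjusted p = 9.29e-06). Isg15 itself had 194, 176 and 177 CPM in KO against 177, 172 and 192 CPM in WT. Its groups overlapped (log2 0.01 ± 0.05 SE, adjusted p = 0.874); its promoter is the one shown above with 3 ISRE core matches. Usp18, the protease that removes Isg15 and inhibits the type I receptor, had 120 to 135 CPM in KO against 124 to 134 CPM in WT (adjusted p = 0.888).

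Outside the members, Uba7, the enzyme that activates Isg15, had 175, 171 and 175 CPM in KO against 157, 156 and 161 CPM in WT, 1.10-fold higher (edgeR adjusted p = 0.00719, but not called with limma, 0.0726). Ube2l6, which conjugates it, had 67.0 ± 2.66 CPM in KO against 67.2 ± 4.73 CPM in WT libraries (SD over 3 libraries, adjusted p = 0.974). Of the genes of this system, Herc6 and Uba7 were called and Isg15, Usp18 and Ube2l6 were not. Differences between these genes were not tested.

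Of the Parp and Dtx3l genes, which act in ADP-ribosylation, Parp14 was called higher, with 287, 275 and 291 CPM in KO against 250, 256 and 256 CPM in WT (1.12-fold, edgeR adjusted p = 0.00285). Parp9 and its partner Dtx3l lie beside it on chromosome 16 (35832874 to 35972605). They differed by 1.05- and 1.03-fold (adjusted p = 0.141 and 0.448).

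The membrane restriction factors held the most abundant member and one of the least abundant. Ifitm3, which blocks viral entry from endosomes, had 1408, 1415 and 1422 CPM in KO against 1523, 1403 and 1511 CPM in WT. WT replicate B fell below all KO libraries, so the groups overlapped (log2 -0.06 ± 0.04 SE, edgeR adjusted p = 0.254). Ifitm1 had 4.93, 4.72 and 4.33 CPM in KO against 2.21, 2.73 and 3.12 CPM in WT, down to 76 counts in a library. Its groups did not overlap and its level was 1.73-fold higher (log2 0.79 ± 0.16 SE, adjusted p = 0.00178). Ifitm2 and Bst2, the tether that holds budding virus at the cell surface, overlapped between groups (adjusted p = 0.611 and 0.423). The 3 Ifitm genes are neighbours on chromosome 7 (140954837 to 141010770).

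The Ifi27 genes were the members called lower. Ifi27 had 195, 195 and 198 CPM in KO against 221, 226 and 224 CPM in WT. The groups were narrow and apart, with a 1.14-fold lower level in KO (log2 -0.19 ± 0.03 SE, edgeR adjusted p = 5.10e-04). Ifi27l2a had 527, 511 and 526 CPM in KO against 599, 530 and 595 CPM in WT, where replicate B lay close to the KO libraries. It was 1.10-fold lower (log2 -0.14 ± 0.04 SE, adjusted p = 0.0292). This call was lost on leaving out KO replicate B (adjusted p = 0.106) or C (0.0679) and without WT replicate A (0.135) or C (0.140). It was also lost with the 5 CPM filter. With limma neither gene was called (adjusted p = 0.102 for Ifi27). The genes adjoin each other on chromosome 12 (103434211 to 103443680), on opposite strands.

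Of the 8 remaining members 7 were called higher, with a median log2 fold change of 0.17. Rsad2, which encodes the antiviral enzyme viperin, had 53.1, 53.9 and 47.6 CPM in KO against 33.9, 36.9 and 35.1 CPM in WT. All KO libraries were clearly above the WT libraries (1.46-fold, log2 0.55 ± 0.05 SE, edgeR adjusted p = 5.04e-06). Phf11d had 83.4, 77.8 and 80.6 CPM in KO against 64.1, 63.9 and 65.5 CPM in WT, 1.25-fold higher (adjusted p = 3.21e-05). Xaf1, an antagonist of an apoptosis inhibitor, had 110, 111 and 111 CPM in KO against 96.8, 91.9 and 94.6 CPM in WT, 1.17-fold higher (adjusted p = 2.65e-04). Samd9l and Rtp4 were 1.14- and 1.11-fold higher (adjusted p = 0.00223 and 0.0115).

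Sp100, a nuclear body protein, and Ifi44 were each 1.09-fold higher, near the threshold (edgeR adjusted p = 0.0388 and 0.0397). Sp100 lost its call on removal of KO replicate A, WT replicate B or WT replicate C (adjusted p from 0.130 to 0.182), and with RSEM counts, limma or a non-robust prior (0.0517, 0.0860 and 0.0560). Ifi44 was not called without KO replicate A or C or WT replicate A or B (0.0801 to 0.198), nor was Rtp4 without WT replicate A (0.0706). Ifi35 had 114 to 122 CPM in KO against 116 to 123 CPM in WT, with overlap (adjusted p = 0.718).

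**Figure D3:**
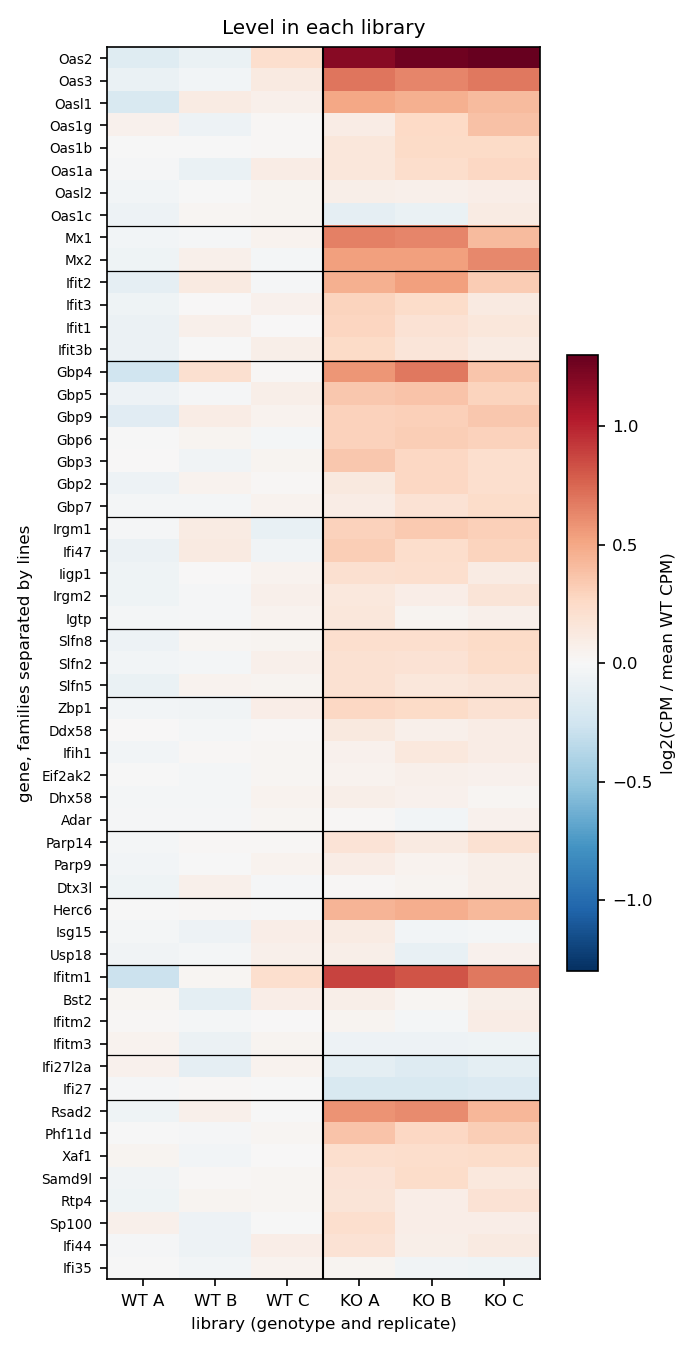
Log2 ratio of each library's CPM to the mean WT CPM (colour) for the 55 members (rows, families separated by lines) in the 3 WT and 3 KO libraries (columns). The KO columns are red for most members and blue for Ifi27 and Ifi27l2a, and the libraries of a genotype resemble each other.

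The libraries of a genotype varied little. The coefficient of variation of a member between the 3 libraries had a median of 3.49% in KO and 4.08% in WT, and reached 17.1% in WT for Ifitm1. Compared with the mean of its group, the median member deviated in log2 by -0.03 in WT replicate A, -0.01 in WT replicate B and 0.03 in WT replicate C. The KO libraries deviated by -0.01 to 0.02. These steps were smaller than the median difference between the genotypes, 0.18.

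Side by side, the families summed to levels that were apart for most. The summed Gbp level was 684 to 705 CPM in KO against 552 to 587 CPM in WT, and that of the IRG genes 1259 to 1290 CPM and 1060 to 1129 CPM. The Ifit sum was 863 to 958 CPM in KO against 745 to 801 CPM in WT, the Oas sum 1009 to 1034 CPM and 889 to 939 CPM, and the Mx sum 93.9 to 98.2 CPM and 63.1 to 66.6 CPM. The Ifi27 sum was lower in KO, 706 to 724 CPM against 757 to 820 CPM. In 2 families, the Isg15 system and the membrane factors, the sums overlapped between genotypes.

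**Figure D4:**
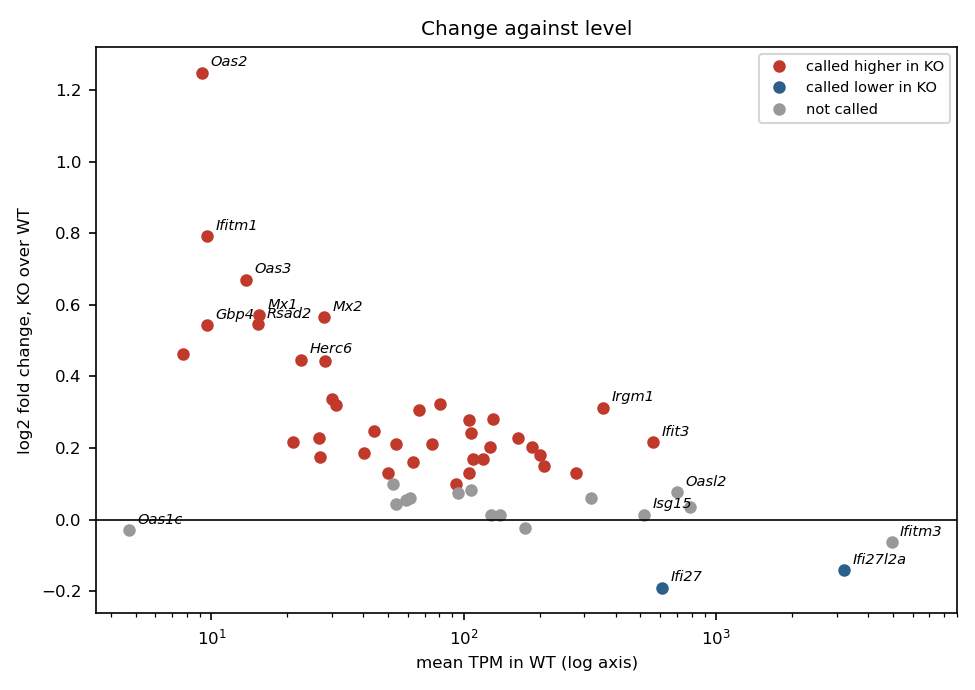
Log2 fold change (KO over WT, y axis) of the 55 members against their mean level in WT in TPM (x axis, log scale), coloured by the call, with selected members named. The largest rises are among members under 30 TPM, and the members called lower are among the 5 most abundant.

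The largest rises were seen in members of low level. TPM values, which are scaled for transcript length and allow levels of genes to be compared, ran in WT from 4.72 for Oas1c to 4963 for Ifitm3, with a median of 80.6. Among the 10 members lowest in WT, 9 were called higher and their median log2 fold change was 0.54. These were Oasl1, Oas2, Ifitm1, Gbp4, Oas3, Rsad2, Mx1, Oas1b and Herc6, beside Oas1c, which was not called. Among the 10 highest, 3 were called higher (Ifit3, Irgm1 and Sp100), 2 lower (Ifi27l2a and Ifi27) and 5 were not called (Ifitm3, Ifitm2, Oasl2, Isg15 and Bst2), with a median of 0.05.

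Across the 55 members, Spearman's rho between the WT level in TPM and the log2 fold change was -0.60. This is a description over genes that share the same 6 libraries and, through the WT values, a part of both measures. The 4 most abundant members took 61.9% of the members' summed WT TPM. The sum over all members in TPM overlapped between the groups, with 15899 to 16128 in KO and 15217 to 16016 in WT, whereas the sum in CPM did not.

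Some members share sequence or exons with another gene, so their counts are uncertain. The estimated counts of RSEM, which divides shared reads between genes, exceeded the read counts by over 1.2 times for 7 members and fell short of 0.8 times for 3. Those 3 were Mx1, Mx2 and Oas1b, whose exons overlap no other gene on the same strand. The reason for their lower estimates was not tested. Gbp6, whose exons overlap the gene model Gm43302, had 5.64 times as many estimated as counted reads, and Ifitm2, which overlaps Gm45717, 3.54 times. On estimated counts the 10 members kept their calls. Gbp6 then had a log2 fold change of 0.31 (edgeR adjusted p = 7.6e-05), Herc6 0.39 (2.5e-05), Mx1 0.47 (2.07e-04) and Ifitm2 0.01 (0.887). Gbp4 shares exons with Gbp8 and Gbp9, and Igtp with Irgm2, on the same strand.

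The upstream genes of the pathway held calls in both directions, as did all genes tested. Of all genes tested 12.5% were called higher and 11.1% lower, which is the background for the small lists below. Of 10 interferon genes (ligands), 8 had no counts in any library, and Ifnl2 and Ifnl3 had at most 3, so none was tested. A count of 0 covers only what these libraries could sample. Among 6 receptor chains, Ifngr1 (86.3, 84.6 and 85.6 CPM in KO against 73.9, 69.6 and 74.1 CPM in WT) and Ifnlr1 were called higher (edgeR adjusted p = 3.91e-04 and 0.0298). Il10rb, the partner chain of Ifnlr1, was lower (79.6, 80.8 and 79.5 CPM against 91.7, 90.7 and 92.9 CPM, adjusted p = 8.27e-04). Ifnlr1 lost its call on removal of any one of KO replicates B and C and WT replicates A and C (adjusted p from 0.0733 to 0.159), and with DESeq2 (0.0618) or limma (0.132).

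Among 7 Janus kinases, Stats and Socs inhibitors 3 were called higher. Stat2 had 239, 217 and 233 CPM in KO against 203, 190 and 203 CPM in WT (1.15-fold, edgeR adjusted p = 0.00175). Socs3 and Socs1 were 1.19- and 1.23-fold higher (adjusted p = 0.00705 and 0.0271). Socs1 was not called without KO replicate A or C or WT replicate A (0.0798 to 0.104).

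Of 7 interferon regulatory factors 1 was called higher and 1 lower, close to the shares of all genes tested. Irf7, which amplifies the type I response, was higher, with 247, 241 and 248 CPM in KO against 204, 202 and 225 CPM in WT (1.17-fold, edgeR adjusted p = 9.5e-04). Irf8 was lower by 1.23-fold (adjusted p = 0.0186), a call lost without KO replicate C or WT replicate A or B (0.0553 to 0.0585) and with limma (0.0532). Irf9 had a log2 fold change of 0.07 (adjusted p = 0.217). A list of Toll-like receptors, the DNA sensor Cgas, and the adaptors and kinases of nucleic acid sensing had 10 tested genes outside the members, of which 5 were called higher. The leading ones by p were Myd88, Ikbke, Tmem173 (which encodes STING) and Tlr3, by 1.23-, 1.33-, 1.28- and 1.21-fold (adjusted p = 2.16e-04, 2.86e-04, 4.19e-04 and 0.00167). With limma Tlr3 was not called (adjusted p = 0.318). The remaining called gene, named after its values were seen, was Cgas, near the limit of the counts. It had 0.997, 1.25 and 1.17 CPM in KO against 0.435, 0.641 and 0.665 CPM in WT (1.95-fold, no overlap, edgeR adjusted p = 0.0263). Cgas was not called with DESeq2 or RSEM counts, or without KO replicate B, WT replicate A or WT replicate B. In each of these settings 4 genes of the list were called.

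Among partners of the effectors, 4 of 6 tested were called higher, among them Uba7, Cmpk2 and Samhd1, and Isg20, an exonuclease, was lower, with 49.3, 52.0 and 49.8 CPM in KO against 68.6, 79.0 and 71.8 CPM in WT (1.45-fold, edgeR adjusted p = 3.39e-06). Cmpk2 was not called without WT replicate C (adjusted p = 0.0564). Trex1 had 0 read counts in every library while its deposited TPM was 82.1 to 95.6, so it was not tested and its count is not taken as absence. The Ifi200 genes were the nearest group for comparison. All 12 tested were called higher, against 12.5% of all genes tested, by 1.60- to 3.56-fold, with a median log2 fold change of 1.198. With the 5 CPM filter 6 were called (median 1.03), which were all that reached it: Ifi202b, Ifi203, Ifi204, Ifi211, Ifi213 and Mndal. The less abundant genes of the cluster were not tested there. With limma 8 were called (median 0.695). Several were near the limit of the counts. Ifi208, which had the largest rise, had a mean of 0.954 CPM in KO against 0.268 CPM in WT. Only 2 of the 55 members, Oas2 and Ifitm1, exceeded the smallest log2 fold change of the Ifi200 genes. That difference between the groups of genes was not tested.

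**Figure D5:**
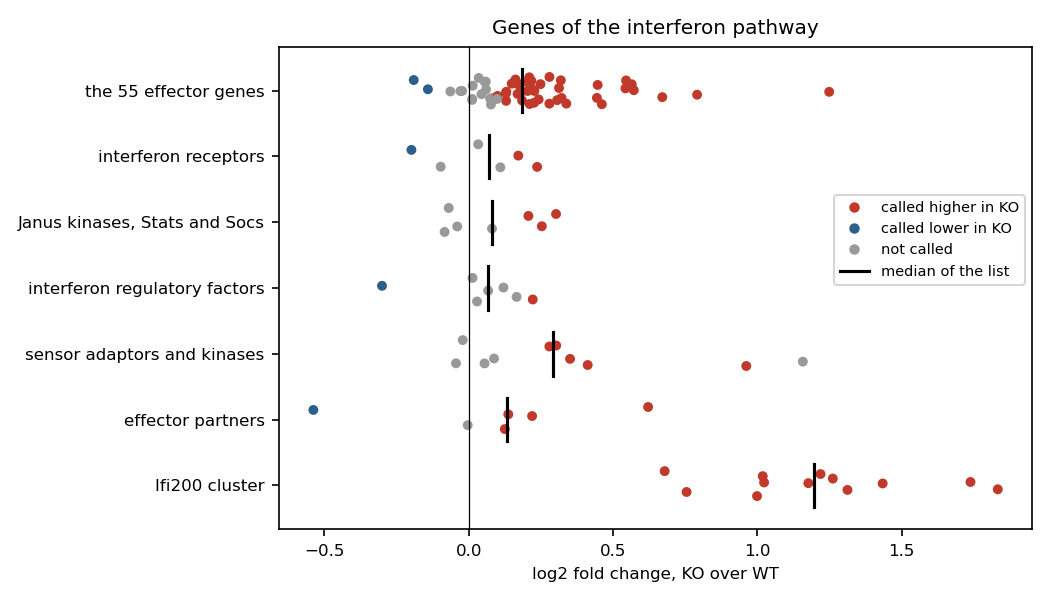
Log2 fold change (KO over WT, x axis) of each tested gene (points, spread vertically for legibility) among the 55 members and in 6 lists of other pathway genes, coloured by the call, with the median of each list as a black bar. The members' median is 0.18, that of the Ifi200 cluster 1.198, and the other lists lie between 0.07 and 0.29.

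Markers of myeloid and dendritic cells, which also express many of these effectors, moved in the same direction as the members, with the summed levels given above. Fibroblast markers also moved, with 5 of 7 called higher and sums of 998 to 1112 CPM in KO against 713 to 819 CPM in WT. Markers of medullary epithelium did so as well, with 5 of 8 called higher and sums of 5335 to 5716 CPM in KO against 3966 to 4535 CPM in WT. The part of these cells in the members' levels was not tested. Of 5 tested markers of plasmacytoid dendritic cells, a list that also holds the member Bst2, 1 was called higher, Ly6d (3 with no low count filter, 2 without KO replicate C). The 6 listed markers summed to 411 to 428 CPM in KO against 394 to 409 CPM in WT, and Siglech, the defining one, was at 0 to 0.566 CPM.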

How the data were processed

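RNA of 3 KO and 3 WT cTEC libraries was sequenced after poly(A) selection with a stranded kit, per the labels' protocols. Per the submitters' processing notes, bcl2fastq 2.17, STAR 2.5.1b and RSEM 1.2.28 were used; the notes name the human build GRCh38, while the identifiers are mouse Ensembl genes, so the build of alignment is uncertain. The authors deposited raw read counts per gene for each strand setting, per the file headers and layout, and the reverse-strand column was used. The authors also deposited RSEM expected counts (estimated counts) and TPM; TPM served to compare levels between genes. Reads mapping to several places are outside the gene counts (4.63% to 4.87% of reads). Rows that name no gene took 18.4% to 19.8% of a library and were left out.

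Symbols and positions came from GENCODE M21 (GRCm38), which matched 50376 of 50600 identifiers, and promoters from RefSeq (GRCm38.p6); 16 members had no entry. KO and WT were compared with the edgeR 4.0.16 quasi-likelihood test (R 4.3.3, TMM, filterByExpr, robust prior, no block) at an adjusted p below 0.05; the SE was derived from the F statistic. CPM were computed with TMM-scaled library sizes. The script was tested on simulated data, in which the changes were larger than the median rise of the members called higher. How often smaller rises are found was not tested. The members, families and lists were chosen with earlier results of these data known, so no test was made over them. Named genes were Psmb11, the up to 3 called members with the smallest adjusted p and the most abundant member of each family, members called lower, and up to 4 called genes of each pathway list; the other members were named to account for all 55. Some pathway genes outside the members are not reported here. The alternatives tried were DESeq2 1.42.0, RLE scaling, limma 3.58.1 on log2(TPM + 1), the RSEM estimates or the unstranded column in place of the counts, either no filter or one on 5 CPM in the higher group, blocking by replicate letter, leaving out each library and, added after the data were seen, a non-robust prior. Figures were drawn with matplotlib 3.10.9.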

Additional observations from a re-analysis of the deposited data

How the results depend on the processing

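The number of members called higher, 38, lay between 31 (limma on log2(TPM + 1)) and 38 over the settings that kept all libraries, and between 30 and 38 when a library was left out. The number called lower, 2, fell to 1 with the 5 CPM filter and to 0 with limma, and was 1 to 2 when a library was left out; limma calls fewer genes in all, 1927 against 3989. The median log2 fold change over the members ran from 0.176 to 0.203 with all libraries and from 0.162 to 0.203 with a library left out. Of the 38 members called higher, 24 were called in every setting, as were 0 of the 2 called lower, and 14 of the 15 others were called in none, Ifih1 being the exception. Calls lost in at least 1 setting were those of Ddx58, Gbp2, Gbp4, Gbp7, Gbp9, Ifi44, Ifit3b, Ifitm1, Irgm2, Oas1a, Oas1g, Rtp4, Sp100 and Xaf1. Among the named members, signs turned for Adar, -0.0103 without KO replicate C (range -0.0103 to 0.0349 with a library left out), and for Isg15, -0.0341 without KO replicate A, -0.000647 without WT replicate A and -0.0200 without WT replicate B (range -0.0341 to 0.0595). They also turned for Usp18 (lowest -0.0221), Bst2 (lowest -0.00202), Ifi35 (highest 0.00256) and Oas1c (highest 0.0176); none of these 6 was called in any setting. Over all settings, 464 values of named members and 298 of named pathway genes kept direction and call, and 26 and 17 lost the call; the cause was not tested. With the replicate block 38 members were called higher and 2 lower, with a median of 0.185; Socs1 was not called (adjusted p = 0.0800), and 7 of 10 cTEC markers were called lower (9 with limma). The letters were not taken as pairs: same-letter libraries deviated from their group means with correlations of -0.0471 to 0.103, and 1 of 3 KO libraries correlated best with its own letter. Counting limits mainly Ifitm1, at 76 counts or more per library; it was not tested under the 5 CPM filter.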
